A study of Mus musculus with 5 samples.

Results

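The genes described here are 9 genes of nascent and extraembryonic mesoderm: Mesp1, Mesp2, Hand1, Mab21l2, Kdr, Etv2, Lmo2, Pdgfra and Foxf1. They are 9 of the 49671 genes in the count table, and each was found there by its gene name. The group was chosen from results of these same embryos, among them the contrast of SO− against SO+ embryos, so the members' differences between genotypes, and whether a fit called them, are given as a description and support nothing.

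Mesoderm arises when epiblast cells pass through the primitive streak, and the first cells to leave it switch on Mesp1 and migrate. Early-leaving cells form the extraembryonic mesoderm of the yolk sac, allantois and amnion, where blood and endothelial precursors carry the receptor Kdr and use the transcription factors Etv2 and Lmo2. Later-leaving cells form the lateral, cardiac and paraxial mesoderm, parts of which carry Pdgfra.

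Single E6.75 mouse embryos of mixed genetic background were sequenced as epiblast with visceral endoderm (VE), after the extraembryonic ectoderm had been cut away for genotyping. The 3 SO− embryos were Sox2Cre+/-; Oct4 fl/-, with 1 floxed and 1 null allele of Oct4 (gene symbol Pou5f1) and a Cre driven by the Sox2 promoter, which acts mainly in the epiblast. The 2 SO+ embryos were labelled wild type and were Sox2Cre-/-; Oct4 fl/+, so every embryo carried a floxed allele and the controls carried no Cre. Oct4 loss under this Cre is mosaic before it is complete, and each embryo was a separate animal.

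The libraries were made from polyadenylated RNA by a SmartSeq2 protocol, with no molecular identifiers to mark copies of a molecule. Total counts were 27538119 and 27047148 in the SO+ embryos and between 1117566 and 4191498 in the SO− embryos, so the SO+ libraries were 8.67 times deeper on average. Levels are given as CPM, counts scaled by the library's total. A gene with 3 counts was at 0.109 to 0.111 CPM in SO+ embryos and at 0.716 to 2.68 CPM in SO− embryos. SO+ and SO− libraries also carried different second index sequences, so library handling and genotype cannot be told apart. Pou5f1, the targeted gene, was at 920.2 and 435.3 CPM in SO+ embryos and at 27.8, 12.5 and 43.7 CPM in SO− embryos 1, 2 and 3, a log2 fold change of -4.43 ± 0.33 (SE). Each embryo was measured as a whole, so fewer cells of a type and less RNA per cell cannot be told apart.

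Start-site windows were read from RefSeq (GRCm38.p6, 250 bases before to 50 after the start) for 6 of the 9 genes, Mesp1, Mesp2, Mab21l2, Kdr, Etv2 and Pdgfra. Those of Mab21l2, Kdr and Etv2 are shown because these genes were higher in every SO− embryo than in both SO+ embryos, and that of Mesp1 because it was the most abundant member. All 4 genes lie on the minus strand, and the windows are at chr7:79793541-79793840 (Mesp1), chr3:86548234-86548533 (Mab21l2), chr5:75978406-75978705 (Kdr) and chr7:30635803-30636102 (Etv2). The RefSeq starts of Mab21l2 and Mesp1 differ from the GENCODE starts used for gene positions here. The Mab21l2 window lies wholly inside its GENCODE exon (86545581 to 86548629). Most of the Mesp1 window lies inside the GENCODE gene (79792241 to 79793788). Capitals mark letters that match a searched motif on either strand. The motifs were the E-box CANNTG, the T-box half-site with the letters GGTGTGA, the core promoter letters TATAAA, and the CCAAT box. No matches overlapped.
Mesp1: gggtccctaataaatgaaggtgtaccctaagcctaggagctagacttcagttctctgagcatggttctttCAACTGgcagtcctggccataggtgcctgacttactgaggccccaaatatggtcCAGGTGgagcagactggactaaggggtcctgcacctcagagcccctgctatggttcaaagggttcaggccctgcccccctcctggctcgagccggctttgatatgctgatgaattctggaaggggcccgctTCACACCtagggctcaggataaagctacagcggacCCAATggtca
Mab21l2: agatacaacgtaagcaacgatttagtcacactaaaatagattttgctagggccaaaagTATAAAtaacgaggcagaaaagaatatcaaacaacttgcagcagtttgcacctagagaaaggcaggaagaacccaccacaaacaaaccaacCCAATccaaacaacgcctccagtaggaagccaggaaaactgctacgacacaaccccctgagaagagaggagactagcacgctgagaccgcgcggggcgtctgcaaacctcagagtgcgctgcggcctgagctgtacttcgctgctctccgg
Kdr: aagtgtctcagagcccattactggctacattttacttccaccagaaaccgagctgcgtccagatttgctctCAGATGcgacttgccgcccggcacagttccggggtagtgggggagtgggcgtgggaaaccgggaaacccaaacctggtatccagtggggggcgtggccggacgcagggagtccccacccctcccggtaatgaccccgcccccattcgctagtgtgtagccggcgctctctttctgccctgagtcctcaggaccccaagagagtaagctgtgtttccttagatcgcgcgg
Etv2: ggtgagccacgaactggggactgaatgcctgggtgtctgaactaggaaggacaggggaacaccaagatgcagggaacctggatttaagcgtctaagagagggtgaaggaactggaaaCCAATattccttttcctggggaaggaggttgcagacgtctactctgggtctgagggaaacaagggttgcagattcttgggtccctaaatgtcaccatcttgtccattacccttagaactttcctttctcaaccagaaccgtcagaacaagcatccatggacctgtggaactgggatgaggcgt
The Mesp1 window held 1 T-box half-site, found in 3.95% of all 32544 windows of this length, with 2 E-boxes (72.3%) and 1 CCAAT (37.4%). Mab21l2 had 1 TATAAA (13.6%) and 1 CCAAT, Etv2 had 1 CCAAT, and Kdr had 1 E-box. The windows of Mesp2 and Pdgfra held 2 E-boxes each. Neither ATGCAAAT, the octamer letters read by POU factors (1.75% of windows), nor AGATAA, which GATA factors read (11.2%), was in any of the 6 windows, which says only that these letters are not there. GC content was between 49.7% and 60.7% in the 6 windows, against a median of 53% over all windows.

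Of the 9 genes, 8 had enough counts to be tested and Foxf1 did not. Hand1, Mab21l2 and Etv2 were called higher in SO− embryos at an adjusted p under 0.05 in the edgeR fit across 12067 genes, and no member was called lower. Over all genes tested, 2.35% were called, 1.42% higher and 0.928% lower in SO− embryos. Hand1, Mab21l2, Kdr and Etv2 were higher in all SO− embryos than in both SO+ embryos, a pattern shown by 13.9% of all genes tested, and no member showed the opposite pattern, shown by 15.6%. The members were chosen with this contrast known, so nothing is read from these counts. The median log2 fold change was 1.24 over the 8 members and -0.002 over all genes tested.

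**Figure D1:**
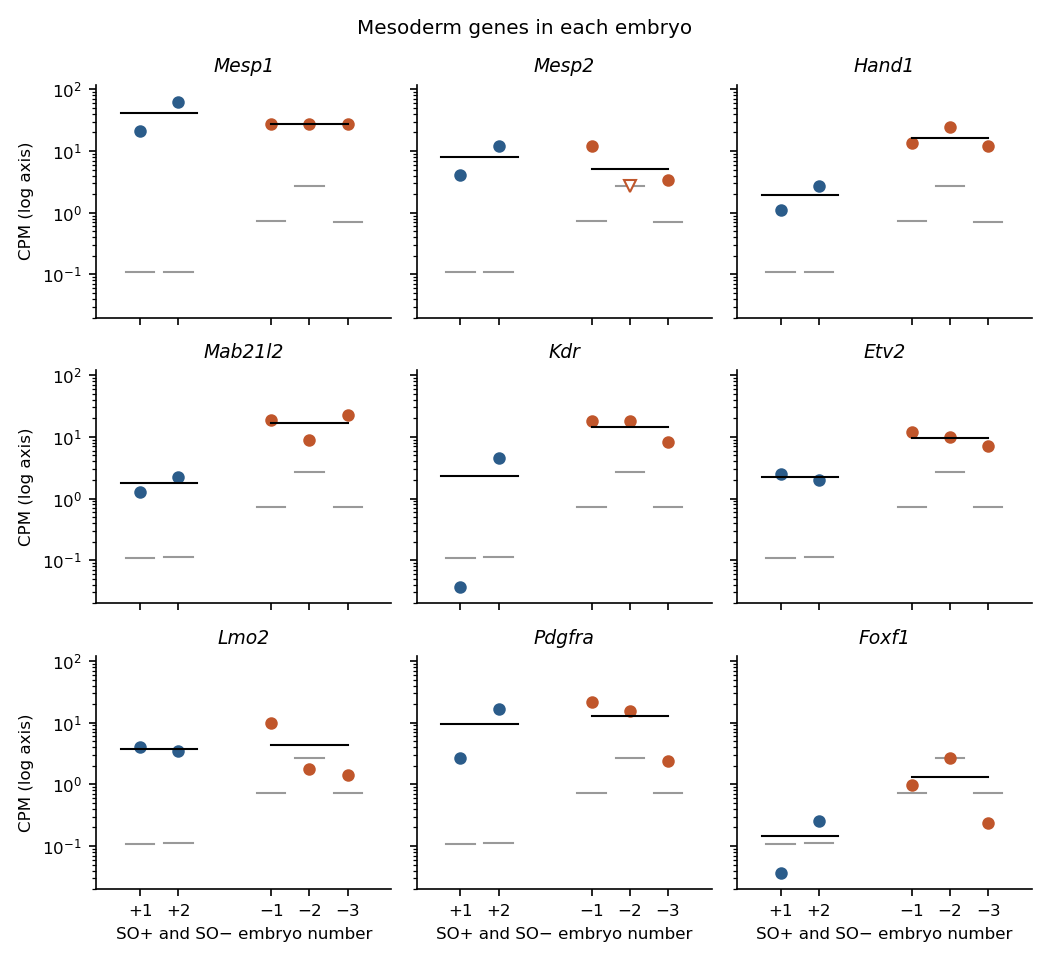
CPM (log axis) of each of the 9 genes in SO+ embryos 1 and 2 (blue) and SO− embryos 1, 2 and 3 (orange), with the mean of each genotype as a black line and the level of 3 counts in each library as a grey line. An open triangle marks 0 counts (Mesp2 in SO− embryo 2), and Hand1, Mab21l2, Kdr and Etv2 show no overlap between the genotypes.

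Mesp1 and Mesp2 encode related basic helix-loop-helix factors, of which Mesp1 marks the first migrating mesoderm and Mesp2 acts later in somite segmentation. They lie head to head on chromosome 7 (Mesp1, ENSMUSG00000030544, 79792241 to 79793788, minus strand; Mesp2, ENSMUSG00000030543, 79810727 to 79813439, plus strand; GRCm38), 16.9 kb apart. Mesp1 was at 20.9 and 63.3 CPM in SO+ embryos 1 and 2 and at 27.8, 27.7 and 27.0 CPM in SO− embryos 1, 2 and 3. The SO− embryos had a mean of 27.5 ± 0.473 CPM (SD, n = 3), and all 3 lay between the 2 SO+ embryos. The log2 fold change of SO− over SO+ was -0.61 ± 0.355 (SE). Without SO+ embryo 1 it was -1.21 and Mesp1 was called lower, and without SO+ embryo 2 it was 0.40, so its direction rested on which control embryo was kept.

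Mesp2 was lower than its neighbour, at 4.07 and 11.9 CPM in SO+ embryos and at 12.1, 0 and 3.34 CPM in SO− embryos. The genotypes overlapped, and the 0 counts in SO− embryo 2 allow a level of up to 2.68 CPM. Its log2 fold change was -0.39 ± 0.707 (SE) and became 0.57 without SO+ embryo 2. Both Mesp genes were therefore about 3-fold apart between the 2 control embryos, while only Mesp1 was close to constant among SO− embryos.

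Hand1, a basic helix-loop-helix factor of extraembryonic and lateral mesoderm, the heart and trophoblast giant cells, lies on chromosome 11 (ENSMUSG00000037335, 57828705 to 57832818, minus strand). It was at 1.09 and 2.74 CPM in SO+ embryos and at 13.5, 24.2 and 11.9 CPM in SO− embryos. Every SO− embryo was above both SO+ embryos, with means of 1.91 ± 1.16 (SD, n = 2) and 16.5 ± 6.64 CPM (SD, n = 3) and a log2 fold change of 3.04 ± 0.519 (SE). The call was lost without SO− embryo 1 (3.15) and without SO− embryo 2 (2.74), and the log2 fold change stayed between 2.50 and 3.83 in all 12 alternative fits. Since Hand1 also acts in trophoblast, the trophoblast markers are given beside it: 6 of 8 (Prl3d1, Prl2c2, Tpbpa, Ctsq, Psg17 and Hsd3b6) had 0 counts in all 5 embryos. Plac1, a placental gene, was at 3.63 and 5.03 CPM in SO+ embryos and at 6.29, 8.95 and 1.91 CPM in SO− embryos (log2 fold change 0.26 ± 0.583, SE, edgeR adjusted p = 0.920). The part of the extraembryonic ectoderm and trophoblast genes in the Hand1 values was not tested. Among extraembryonic ectoderm markers, 0 of 7 tested were called by edgeR (1 at an unadjusted p under 0.05). Their sum was 243 and 293 CPM in SO+ and 268 to 356 CPM in SO− embryos. Most of it was Eomes (209 and 252 against 214, 277 and 228 CPM), which is also a streak gene. Krt7, next in level, was at 15.2 and 20.9 against 34.1, 57.3 and 27.0 CPM. Of the 7, 4 had a positive and 3 a negative log2 fold change.

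Foxf1, a forkhead factor of the allantois and lateral plate, was near the detection limit in every embryo. Its 5 libraries held 1, 7, 4, 3 and 1 counts (SO+ embryos 1 and 2, then SO− embryos 1 to 3). In CPM this was 0.0363 and 0.259 against 0.967, 2.68 and 0.239, so the genotypes overlapped. The gene lies on chromosome 8 (ENSMUSG00000042812, 121084386 to 121088144, plus strand).

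Kdr encodes the VEGF receptor VEGFR2, the earliest surface mark of blood and endothelial precursors, and lies on chromosome 5 (ENSMUSG00000062960, 75932827 to 75978458, minus strand). It was at 0.0363 and 4.59 CPM in SO+ embryos, that is 1 and 124 counts, and at 17.9, 17.9 and 8.35 CPM in SO− embryos. The groups did not overlap, with means of 2.31 ± 3.22 (SD, n = 2) and 14.7 ± 5.51 CPM (SD, n = 3), but the 2 control embryos were further apart in fold than these means. The log2 fold change was 2.64 ± 0.970 (SE) and was not called. It was 1.63 without SO+ embryo 1 and 8.17 without SO+ embryo 2, where it was called.

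Etv2, an ETS factor needed for the first blood and endothelial cells, was at 2.54 and 1.96 CPM in SO+ embryos and at 11.9, 9.84 and 7.16 CPM in SO− embryos. All SO− embryos were above both SO+ embryos, with means of 2.25 ± 0.412 (SD, n = 2) and 9.62 ± 2.36 CPM (SD, n = 3). Among the 4 non-overlapping members Etv2 had the smallest log2 fold change, 2.09 ± 0.471 (SE). It lies on chromosome 7 (ENSMUSG00000006311, 30633616 to 30635852, minus strand). The call was lost with limma-voom (2.08) and without any 1 of SO+ embryo 1 (2.28), SO+ embryo 2 (1.92), SO− embryo 1 (1.86) and SO− embryo 2 (2.08). The 12 alternatives stayed between 1.86 and 2.28.

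Lmo2, a LIM-only adaptor of the blood progenitor transcription complex, gave a different picture. It was at 3.99 and 3.44 CPM in SO+ embryos and at 9.92, 1.79 and 1.43 CPM in SO− embryos. SO− embryo 1 was above both controls and the other 2 SO− embryos, with 2 and 6 counts, were below both. The log2 fold change of 0.38 ± 0.678 (SE) became -1.27 without SO− embryo 1. The gene lies on chromosome 2 (ENSMUSG00000032698, 103957986 to 103981878, plus strand).

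Pdgfra, the receptor for PDGF ligands, marks paraxial and cardiac mesoderm and also extraembryonic endoderm. It lies on chromosome 5 (ENSMUSG00000029231, 75152292 to 75198215, plus strand), 734.6 kb from Kdr. Pdgfra was at 2.69 and 16.6 CPM in SO+ embryos and at 21.3, 15.2 and 2.39 CPM in SO− embryos, and both genotypes covered nearly the same range. Its log2 fold change was 0.39 ± 0.747 (SE), -0.40 without SO+ embryo 1, 2.24 without SO+ embryo 2 and -0.48 without SO− embryo 1. VE markers summed to 3179 and 3540 CPM in SO+ embryos and to 4892, 4888 and 3046 CPM in SO− embryos, so SO− embryo 3 was the lowest of all for VE markers and for Pdgfra. Their part in the Pdgfra values was not tested. Of 15 VE markers, Sox17, which definitive endoderm also expresses, was called higher (log2 fold change 1.33 ± 0.303, SE, edgeR adjusted p = 0.0365) and none lower. The log2 fold change was positive for 13 of the 15 and negative for 2, with a median of 0.39 against -0.002 over all genes tested.

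Mab21l2, a gene of the male-abnormal 21 family needed for eye and body wall development, had the largest log2 fold change of the 8 tested members, 3.32 ± 0.464 (SE). It was at 1.27 and 2.26 CPM in SO+ embryos and at 18.9, 8.95 and 22.4 CPM in SO− embryos. Every SO− embryo was above both SO+ embryos, and the call was lost in 1 of the 12 alternative fits, without SO− embryo 1 (3.24). Mab21l2 is a single-exon gene on chromosome 3 (ENSMUSG00000057777, 86545581 to 86548629, minus strand) inside Lrba, and 1097 of its exon bases (36.0%) are also exon of Lrba on the opposite strand. The use of strand in counting is not given in the sources used here, so reads of the shared bases cannot be assigned. Lrba was at 6.61 and 2.48 CPM in SO+ embryos and at 5.08, 8.05 and 3.82 CPM in SO− embryos, with a log2 fold change of 0.22 ± 0.554 (SE, edgeR adjusted p = 0.935).

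**Figure D2:**
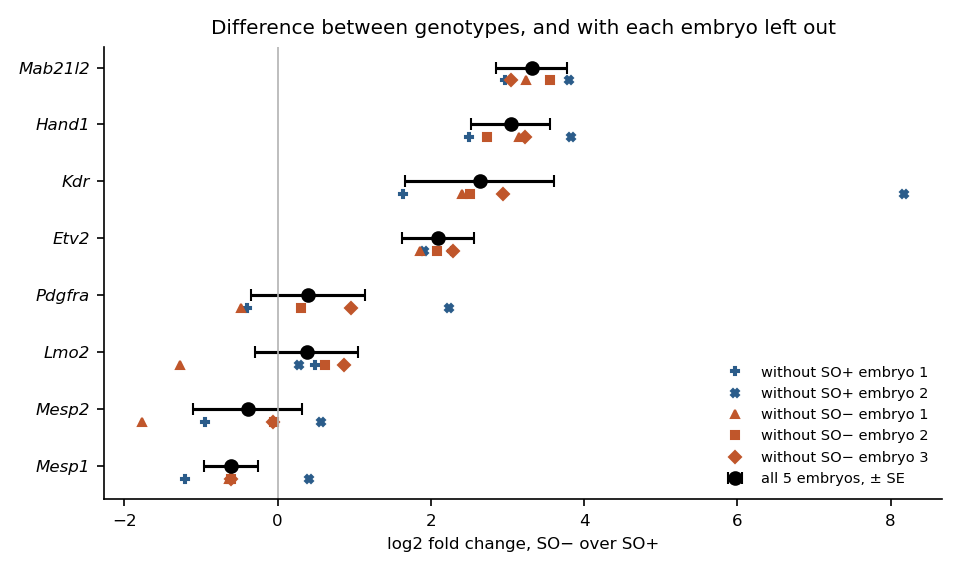
Log2 fold change of SO− over SO+ for the 8 tested genes, from all 5 embryos (black, ± SE) and from the 5 fits that each lack 1 embryo (coloured symbols). Mab21l2, Hand1, Kdr and Etv2 stayed above 0 in every fit shown, while Mesp1, Mesp2, Lmo2 and Pdgfra changed sign with 1 embryo.

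Levels of different genes were compared per exon length, as RPKM, the CPM divided by the exon length in kilobases. In SO+ embryos the order of mean RPKM was Mesp1 (33.0 ± 23.5, SD, n = 2), Mesp2 (4.10 ± 2.84), Etv2 (2.15 ± 0.393), Lmo2 (1.72 ± 0.182), Pdgfra (0.960 ± 0.979), Hand1 (0.958 ± 0.583), Mab21l2 (0.578 ± 0.228), Kdr (0.256 ± 0.356) and Foxf1 (0.0611 ± 0.0652). Mesp1 was above Mesp2 in both embryos with no overlap, and of the other neighbours only Etv2 and Lmo2 did not overlap, by a margin smaller than the SD of Etv2. In SO− embryos the order of mean RPKM was Mesp1 (21.6 ± 0.371, SD, n = 3), Etv2 (9.18 ± 2.25), Hand1 (8.29 ± 3.33), Mab21l2 (5.49 ± 2.29), Mesp2 (2.65 ± 3.21), Lmo2 (2.02 ± 2.22), Kdr (1.63 ± 0.610), Pdgfra (1.29 ± 0.963) and Foxf1 (0.537 ± 0.52). There Mesp1 was above Etv2 with no overlap, and every later pair of neighbours overlapped. Mesp1 was thus first in both genotypes. The summed CPM of the 9 genes, of which Mesp1 was the largest part in every embryo, reached 36.6 and 107 CPM in the 2 SO+ embryos and ranged from 84.2 to 134 CPM among the SO− embryos, where embryo 2 was at 108.

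**Figure D3:**
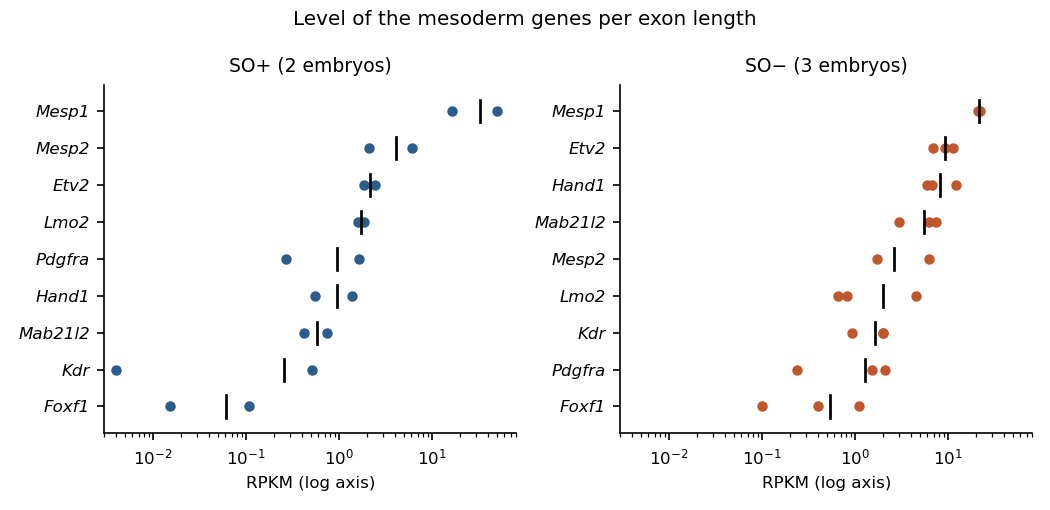
RPKM (log axis) of the 9 genes in each SO+ embryo (blue, left) and SO− embryo (orange, right), ordered by the mean of each genotype (black bar). Mesp2 had 0 counts in SO− embryo 2 and that point is not drawn, and Mesp1 is the highest gene in both panels.

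The 2 control embryos differed from each other for most of the members. SO+ embryo 2 was at least 2-fold above SO+ embryo 1 for 5 of the 8 members with 10 or more counts in either embryo, and at least 2-fold below for none. Among all 16263 genes with as many counts, 8.36% were at least 2-fold above and 9.73% at least 2-fold below, and the median ratio was 0.991 against 2.72 for the members. These ratios compare 2 single embryos, allow no test, and carry 95% intervals (exact binomial) that cover counting error only.

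Pdgfra was 6.16-fold higher in SO+ embryo 2 (interval 4.81 to 7.99), Mesp1 3.03-fold (2.76 to 3.34), Mesp2 2.92-fold (2.35 to 3.65) and Hand1 2.51-fold (1.62 to 3.98). Kdr, with 1 count in embryo 1, had a ratio of 126 (22.3 to 5026). Mab21l2 was 1.77-fold higher (1.15 to 2.77), and the ratios of Etv2 (0.771, 0.529 to 1.12) and Lmo2 (0.861, 0.646 to 1.15) had intervals that include 1. Foxf1 had too few counts to be included. The blood factors Etv2 and Lmo2 were thus the members that were alike in both controls, and Pdgfra and Kdr those furthest apart.

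The genes of nascent and paraxial mesoderm differed between the control embryos too. Of 16 with enough counts, 10 were at least 2-fold higher in SO+ embryo 2 and 0 at least 2-fold lower, with a median ratio of 3.09. Tbx6, a T-box factor of presomitic mesoderm, had 0 and 46 counts in SO+ embryos 1 and 2 (at least 15.6-fold higher, against 3 counts), and Aldh1a2, the retinoic acid synthesising enzyme, 0 and 14 (at least 4.75-fold higher). Pcdh8, a protocadherin of paraxial mesoderm, was 10.3-fold higher (6.95 to 15.97). The lowest ratios of this list were 0.664 (0.322 to 1.33) for Meox1, 0.977 (0.837 to 1.14) for Wnt5b and 1.08 (1.02 to 1.14) for Cited1. Among streak genes 4 of 15 were at least 2-fold higher in embryo 2 and 0 lower, led by Lhx1 (2.73-fold), Sp5 (2.54-fold) and Gsc (2.20-fold), while Nodal (0.778), Tdgf1 (0.879) and Fgf8 (0.894) had the lowest ratios. In the lateral and blood lists 6 of 20 and 4 of 16 were at least 2-fold higher, and 2 and 2 at least 2-fold lower. The listed epiblast markers (0 of 9, median ratio 1.00) and VE markers (0 of 15, median ratio 1.16) held no gene that differed 2-fold. Pou5f1, an epiblast gene that was not on that list, differed more, at 920.2 CPM in SO+ embryo 1 and 435.3 CPM in SO+ embryo 2.

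**Figure D4:**
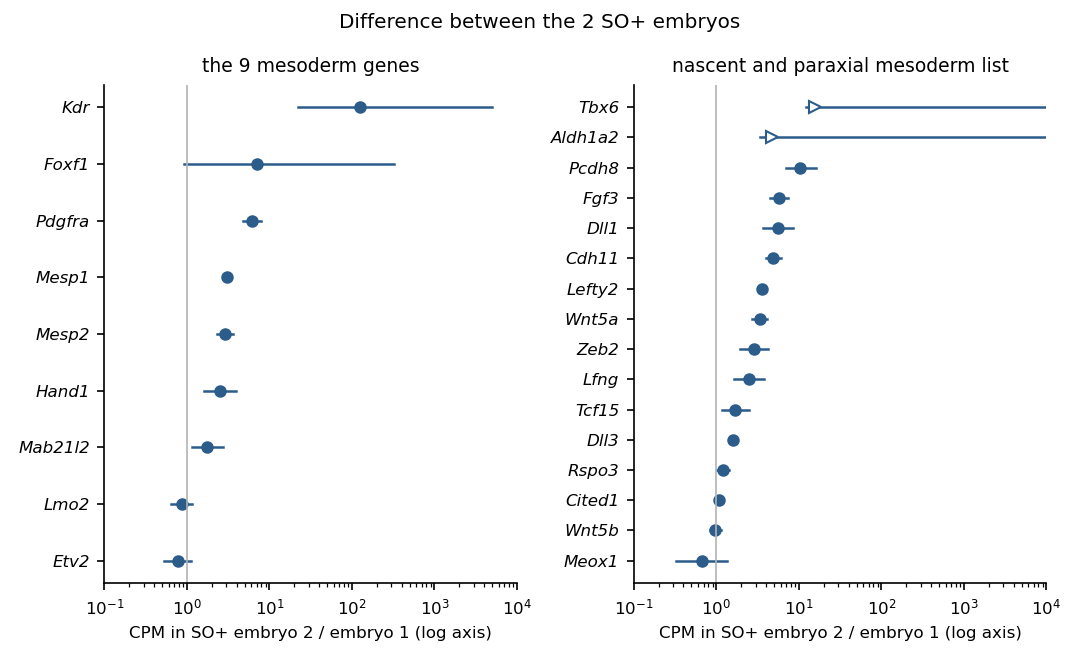
Ratio of CPM in SO+ embryo 2 to SO+ embryo 1 (log axis) with exact 95% counting intervals, for the 9 genes (left) and for the nascent and paraxial mesoderm genes with 10 or more counts in either embryo (right). Open triangles are lower bounds for Tbx6 and Aldh1a2, which had 0 counts in embryo 1, and most genes lie to the right of the line at 1.

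Further mesoderm genes were read from the same edgeR fit as lists. The lists were written from textbook knowledge, but with earlier results of these data known, so their calls are given as a description. The share of all genes tested that had an unadjusted p under 0.05 was not counted, so nothing is read from such counts in any list. Of 16 primitive streak genes 13 were tested, and 1 was called higher and 0 lower in SO− embryos (4 at an unadjusted p under 0.05), with a median log2 fold change of 0.20. The called gene was Fgf8, an FGF ligand that streak cells need to move away, at 138 and 123 CPM in SO+ embryos and at 306, 333 and 295 CPM in SO− embryos (log2 fold change 1.26 ± 0.113, SE, edgeR adjusted p = 1.25e-04). The groups did not overlap and Fgf8 was called in all 12 alternative fits. The 3 most abundant streak genes not called were Tdgf1 (log2 fold change -0.40, edgeR adjusted p = 0.0669), Mixl1 (-0.44, adjusted p = 0.375) and Eomes (0.05, adjusted p = 0.939).

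Of 22 nascent and paraxial mesoderm genes 13 were tested and edgeR called 0, with 4 at an unadjusted p under 0.05, 1 called by DESeq2 and 0 by limma-voom. Their median log2 fold change was 0.24. The 3 most abundant were Cited1 (0.20, edgeR adjusted p = 0.652), Lefty2 (0.16, adjusted p = 0.938) and Dll3 (0.29, adjusted p = 0.737). Pcdh19 (4.28, adjusted p = 0.0638) and Cdh11 (1.59, adjusted p = 0.131) were higher in every SO− embryo than in both SO+ embryos. Wnt5b (-1.09, adjusted p = 0.162) was lower in every one. Pcdh19, with 0 and 9 counts in SO+ embryos, passed the filter through the SO− embryos. Tbx6 and Aldh1a2, with 0 counts in SO+ embryo 1, were at 1.70 and 0.518 CPM in SO+ embryo 2. In SO− embryos 1 to 3 Tbx6 had 1, 0 and 0 counts and Aldh1a2 had 0 in each. The level seen for Aldh1a2 in SO+ embryo 2 lies under the 3-count limit of every SO− library, and that of Tbx6 under the limit of SO− embryo 2.

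Of 30 lateral plate, cardiac and extraembryonic mesoderm genes 10 were tested, and 2 were called higher and 0 lower (7 at an unadjusted p under 0.05), with a median log2 fold change of 0.95. Pmp22, a membrane protein of myelin and mesenchyme, was at 2.22 and 2.22 CPM in SO+ embryos and at 30.5, 20.6 and 11.9 CPM in SO− embryos (log2 fold change 3.25 ± 0.431, SE, edgeR adjusted p = 0.00159). Isl1, a LIM homeobox factor of the second heart field, was at 6.86 and 8.58 CPM in SO+ embryos and at 24.9, 30.4 and 27.4 CPM in SO− embryos (1.82 ± 0.260, SE, adjusted p = 0.00237). Neither gene overlapped between the genotypes, and without SO− embryo 2 neither was called (adjusted p = 0.0674 for both), nor was Pmp22 without SO− embryo 1. The most abundant genes not called were Gata4 (log2 fold change 0.38, edgeR adjusted p = 0.499), Msx1 (1.16, adjusted p = 0.0787) and Gata6 (0.84, adjusted p = 0.361). VE also expresses Gata4 and Gata6.

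Of 27 blood and endothelial progenitor genes 11 were tested and edgeR called 0, with 4 at an unadjusted p under 0.05 and 0 called by DESeq2 or limma-voom. Their median log2 fold change was 0.02. Egfl7 (-0.14, edgeR adjusted p = 0.802), Ets2 (-0.14, adjusted p = 0.824) and Kit (0.60, adjusted p = 0.175) were the most abundant. Of the 27, 5 had 0 counts in all 5 embryos: the embryonic globins Hbb-bh1 and Hba-x, the erythroid factor Gfi1b, and the endothelial genes Cdh5 and Tie1. Other genes of blood and vessels were counted in some embryos. Pecam1, an endothelial adhesion gene, had 0, 23, 5, 3 and 12 counts in SO+ embryos 1 and 2 and SO− embryos 1 to 3 (log2 fold change 2.33 ± 1.17, SE, edgeR adjusted p = 0.411). Esam, of endothelial junctions, had 1, 17, 1, 2 and 0 counts, Itga2b, an integrin of early blood cells, 0, 16, 0, 0 and 0, and Klf1, an erythroid factor, 19, 3, 0, 0 and 4.

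The ligands and co-receptors of Kdr and Pdgfra were listed with their relatives. Of 15 genes 10 were tested, and 2 were called higher and 0 lower (4 at an unadjusted p under 0.05), with a median log2 fold change of 0.63. Flt1, the VEGF receptor related to Kdr, was at 16.3 and 24.5 CPM in SO+ embryos and at 71.4, 63.5 and 61.3 CPM in SO− embryos (1.69 ± 0.207, SE, edgeR adjusted p = 8.92e-04). Nrp2, a neuropilin co-receptor, was at 3.05 and 3.85 CPM in SO+ embryos and at 15.7, 17.0 and 8.11 CPM in SO− embryos (1.94 ± 0.436, SE, adjusted p = 0.0344). In both genes every SO− embryo was above both controls, but Flt1 was not called without SO− embryo 2 (adjusted p = 0.0516) and Nrp2 not with limma-voom or without SO+ embryo 1, SO− embryo 1 or SO− embryo 2 (adjusted p up to 0.280). The most abundant genes not called were the ligands Vegfb (log2 fold change -0.40, edgeR adjusted p = 0.401) and Pdgfa (0.56, adjusted p = 0.530) and the co-receptor Nrp1 (1.73, adjusted p = 0.0642). Of 17 close relatives of the 9 genes 8 were tested, and Flt1 was the 1 called (3 at an unadjusted p under 0.05), while the Mab21l2 relative Mab21l1 had 5, 1, 4, 0 and 0 counts.

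**Figure D5:**
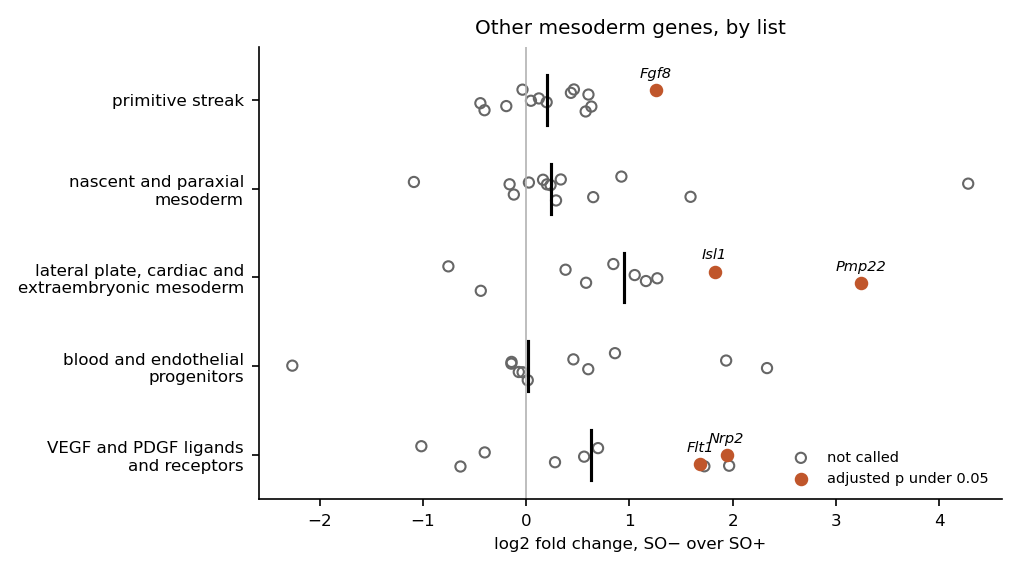
Log2 fold change of SO− over SO+ for the tested genes of 5 lists, each point a gene, filled where the edgeR adjusted p was under 0.05, with the list's median as a black bar and the median of all genes as a grey line. The 5 filled genes are Fgf8, Isl1, Pmp22, Flt1 and Nrp2, all to the right.

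Markers of the other tissues were read from the same fit. Of 9 epiblast markers Utf1 (log2 fold change -2.08 ± 0.227, SE, edgeR adjusted p = 4.06e-04) and Dnmt3b (-0.99 ± 0.152, SE, adjusted p = 0.00392) were called lower and 0 higher, with a list median of -0.09. The summed level of the 9 was 5921 and 5252 CPM in SO+ against 2957 to 4111 CPM in SO− embryos. The 7 markers that were not called summed to 1428 and 1596 CPM in SO+ and to 1441, 1445 and 1676 CPM in SO− embryos, so the lower sum came from Dnmt3b and Utf1. Of 7 tested parietal endoderm and basement membrane markers 0 were called by edgeR (1 at an unadjusted p under 0.05), with sums of 530 and 575 CPM in SO+ and 564 to 656 CPM in SO− embryos. Of 11 maternal blood, immune and decidual markers 6 (Ptprc, Lyz2, Hbb-bs, Hbb-bt, Hba-a2 and Prl8a2) had 0 counts in every embryo. The sum of the list was 39.98 and 34.1 CPM in SO+ and 23.3 to 28.4 CPM in SO− embryos, and most of it was Alpl (38.1 and 28.03 CPM in SO+ and 20.6 to 24.4 CPM in SO− embryos), which the embryo itself also expresses. Lum, a stromal proteoglycan gene, had 0 counts in both SO+ embryos and 5, 2 and 10 counts in SO− embryos 1, 2 and 3. Cd74, which was not tested, had 14 and 33 counts in SO+ and 2, 0 and 2 counts in SO− embryos. These SO− counts are under the 3-count limit, and so is the 0.508 CPM of SO+ embryo 1 in every SO− library. Their part in the members' values was not tested.

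The genes with the most similar pattern to each member were found by the distance between log2 CPM values centred on each gene's mean, over the 5 embryos. Hand1 was closest to Samd3 (distance 0.447), Irgm1 (0.541), an interferon-induced GTPase, and Bmp7 (0.690), a BMP ligand that was at 4.72 and 17.0 CPM in SO+ and at 65.5, 76.1 and 56.5 CPM in SO− embryos. Mab21l2 was closest to Btbd17 (0.793), Plekhg1 (0.908) and Pcdh19 (1.13), the protocadherin of the paraxial list. Etv2 was closest to Cpsf4l (0.0705), Greb1l (0.365) and Tdrd5 (0.453).

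Kdr was closest to Gbp2 (1.37), Gbp4 (1.43) and Gbp3 (1.59), interferon-induced guanylate-binding proteins with 0 counts in SO+ embryo 1, as Kdr had 1. Mesp1 was closest to Snx10 (0.427), Gt(ROSA)26Sor (0.442) and Ntrk2 (0.462), which were likewise highest in SO+ embryo 2. Mesp2 was closest to Slc46a3 (1.04), Lmo2 to Nfatc2 (0.608) and Pdgfra to RP23-145I16.5 (0.612). Among the members Hand1, Mab21l2 and Etv2 lay closest together, with Hand1 at 1.78 from both of the others and Mab21l2 at 1.89 from Etv2. These are the called members, chosen with the contrast known, so nothing is read from their likeness. Many other genes were closer. By distance from Hand1, Mab21l2 ranked 86 and Etv2 88, and by distance from Etv2, Hand1 ranked 911 and Mab21l2 1351. Mesp1 was at 4.87 from its neighbour Mesp2, which had 0 counts in SO− embryo 2, the shallowest library. Slc46a3, the gene nearest to Mesp2, was also at 0 there.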

How the data were processed

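RNA-seq counts of 5 single embryos were analysed. The counts deposited by the authors are raw read counts of 49671 genes. They come from HTSeq-count on Ensembl 87 annotation, run on STAR alignments to the mouse genome (GRCm38/mm10) after adapter trimming by cutadapt. Strand setting and duplicate removal are not given in the sources used here. PCR copies cannot be recognised, so intervals and limits cover counting error only. Positions and exon lengths are from GENCODE M21 on GRCm38, which held 49412 of the genes.

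Counts were tested in R 4.3.3 with edgeR 4.0.16 (quasi-likelihood test, filterByExpr, TMM scaling, genotype as the only term, Benjamini-Hochberg adjustment over 12067 genes, threshold 0.05), after a check on simulated counts. CPM use total counts. SE was obtained by dividing the size of the log2 fold change by √F. A gene can pass the filter through the genotype where it is high. With 2 embryos against 3, an exact permutation test of a single gene cannot go below p = 0.1, and none was run. Alternatives were DESeq2 1.42.0 (the tool of the study's methods), limma-voom (limma 3.58.1), other scalings and filters (none, or 10 counts in 2 embryos), the replicate number as a block, and each embryo left out.

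The members and gene lists were chosen with earlier results of these data known. Genes named are the members, Pou5f1, called list genes and genes drawn from further kinds. These kinds were the 3 most abundant genes not called and the 3 highest and 3 lowest SO+ ratios of each list. The last kind was the 3 genes nearest each member in centred log2 CPM (prior count 2). Some genes of these kinds are given as counts only. Many are not named, among them the lateral genes with the highest and lowest SO+ ratios. Lrba, the genes at 0 counts, Tal1, Gata1, Gata2, Cd34, Bmp4, Msx2, Myl7, Vim, Hhex, Krt7, Lum, Mab21l1 and the genes behind counts of 5 or fewer were named after their values were seen. The same holds for Flt4, Meox1, Ahnak and Cdh11, and for the genotype values of Pcdh19 and Wnt5b. The result of 1 trophoblast marker is not reported here.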

Additional observations from a re-analysis of the deposited data

How the results depend on the processing

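Across all genes edgeR called 283, against 380 with DESeq2, 91 with limma-voom, 929 with the replicate block and between 35 and 573 with 1 embryo left out (180 without SO+ embryo 1, 573 without SO+ embryo 2, 46, 35 and 263 when SO− embryo 1, 2 or 3 was omitted). The fit called 3 members, against 5 with the replicate block and 0 to 3 with 1 embryo left out (0 where SO− embryo 1 was left out, 1 where SO− embryo 2 was). The replicate block gave 6 streak, 5 paraxial, 8 lateral and 4 blood genes, against 1, 0, 2 and 0. DESeq2 gave 2 streak and 1 paraxial gene, and limma-voom 1 ligand or receptor gene against 2. Leaving out 1 embryo gave 1 to 5 streak, 0 to 3 paraxial, 0 to 6 lateral, 0 to 2 blood and 0 to 3 ligand or receptor genes, the highest count of each without SO+ embryo 2 and the lowest lateral and ligand or receptor counts without SO− embryo 2. Without an SO+ embryo the remaining one is assumed to vary like the SO− embryos. Same-numbered embryos are different animals, and the labels give no pairing beyond the number. Their deviations correlated at 0.008 and 0.115, but with 2 SO+ embryos the SO+ deviations mirror each other. A litter or preparation shared by number was therefore not tested by these values. The cause of these shifts was not tested. Depth limits low genes most in SO− embryo 2.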

Other observations

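Of the 11 tested blood and endothelial progenitor genes, 4 (Kit, Pecam1, Hhex and Gata1) were higher in all 3 SO− embryos than in both SO+ embryos and 1 (Cd34) was lower. Of the 10 tested lateral and extraembryonic mesoderm genes, 5 (Pmp22, Isl1, Msx1, Msx2 and Bmp4) were higher and 2 (Myl7 and Vim) were lower. Of 13 tested streak genes 1 was higher and 1 lower, and of 13 tested paraxial genes 2 were higher and 1 lower. Of 10 tested ligand or receptor genes 4 were higher and 0 lower. Over all genes tested these patterns were shown by 13.9% and 15.6%, and the genes below were named after their values were seen. A gene can pass the count filter through the genotype where it is high, as Pecam1 did (0 and 0.850 CPM in SO+ embryos). Nothing is therefore read from the counts of higher genes. Gata1, the erythroid GATA factor, was at 1.02 and 3.14 CPM in SO+ and at 7.98, 8.05 and 7.87 CPM in SO− embryos (log2 fold change 1.94, edgeR adjusted p = 0.113). Bmp4, a ligand that induces extraembryonic mesoderm, was at 4.43 and 3.85 CPM against 10.6, 16.1 and 5.25 CPM (1.27, adjusted p = 0.242), and Msx2, a homeobox target of BMP, at 7.88 and 13.6 against 22.3, 31.3 and 15.98 CPM (1.05, adjusted p = 0.152). Cd34 was at 8.39 and 4.21 CPM against 0.726, 1.79 and 1.67 CPM (-2.27, adjusted p = 0.0776). Myl7, a myosin light chain of heart muscle, was at 3.20 and 3.92 CPM against 2.90, 1.79 and 1.43 CPM (-0.75, adjusted p = 0.653), and the intermediate filament gene Vim at 33.7 and 27.2 against 20.1, 25.1 and 22.9 CPM (-0.44, adjusted p = 0.398).

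Among genes with too few counts to be tested, Tal1, a blood progenitor factor that works with Lmo2, had 14 and 20 counts in SO+ and 9, 5 and 7 counts in the shallower SO− libraries, or 0.508 and 0.739 against 2.18, 4.47 and 1.67 CPM. Gata2 was at 0.981 and 0.370 CPM against 1.94, 5.37 and 2.15 CPM. Flt4, Meox1 and Ahnak, also untested, were lower in CPM in every SO− embryo than in both SO+ embryos, with under 3 counts in each SO− library. The share of untested genes with this pattern was not counted. Flt4, of the ligand and receptor list, had 79 and 36 counts in SO+ and 1, 0 and 1 in SO− embryos. In CPM this was 2.87 and 1.33 against 0.242, 0 and 0.239. Meox1, of the paraxial list, had 23 and 15 counts, or 0.835 and 0.555 CPM, against 0 in each. The 0.555 CPM of SO+ embryo 2 lies under the 3-count limit of every SO− library (0.716 to 2.68 CPM). Ahnak, of the lateral list, had 54 and 36 against 2, 0 and 2, or 1.96 and 1.33 against 0.484, 0 and 0.477 CPM. Both SO+ levels of Meox1 and Ahnak, and that of Flt4 in SO+ embryo 2, lie under the limit of SO− embryo 2. Krt7, a tested epithelial keratin gene listed with the extraembryonic ectoderm, was at 15.2 and 20.9 against 34.1, 57.3 and 27.0 CPM (log2 fold change 1.05, edgeR adjusted p = 0.0827) and was the 1 gene of its 7 tested at an unadjusted p under 0.05.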
